A study of Mus musculus with 10 samples.

Results

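The genes described here encode the protein subunits of the cytosolic and the mitochondrial ribosome. They were taken by symbol: a gene was a member when its platform symbol began with Rpl, Rps, Mrpl or Mrps and a number, without the Rps6k kinases, -like paralogs and pseudogenes. The rule used no measured change, and it found 117 of the 18193 genes measured. One of them, Rps19bp1, encodes a binding partner of a ribosomal protein and not a subunit, so it was put in no subunit class. The other 116 were 40 cytosolic genes, 20 of the large and 20 of the small subunit, and 76 mitochondrial genes, 47 of the large and 29 of the small subunit. Mrps36 stays in the mitochondrial class by its symbol, although its product is known as a component of the alpha-ketoglutarate dehydrogenase complex.

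The arrays came from mouse leukaemia cells of line 4166, which carry the Mll-AF9 fusion. Of the 10 arrays, 5 held RNA of cells with a lentivirus for a short hairpin RNA (shRNA) against Meis1, and 5 held RNA of cells with the empty lentiviral vector, here the control vector. Both groups were cultured with 15% serum and interleukin 3 at 2 ng/ml in IMDM medium, were selected with puromycin and were collected 48 h after transduction, and each shRNA sample was paired with the control sample of the same number. The design rests on 1 line and on 1 hairpin construct, as far as the labels say, and it is not stated that the samples came from separate cultures. The p-values then reach no further than these samples. They rest on how far the samples spread, a spread that the fit pools in part over all genes, and part of it may be technical.

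The cytosolic ribosome translates the messenger RNAs of the nucleus and is assembled in the nucleolus. Its protein genes are known to be among the most highly expressed of growing cells, and many of their messenger RNAs begin with a run of pyrimidines through which translation responds to growth signals. The mitochondrial ribosome has its own set of nuclear-encoded proteins, which are imported into the organelle. It translates the few messenger RNAs of the mitochondrial genome, whose products are subunits of the respiratory chain and of ATP synthase.

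The sequences around the starts of these genes are shown first, because they are a feature of the genes that the symbol rule and the array values do not hold. RefSeq promoter windows (GRCm38.p6, 250 bases before to 50 after each start) were found for 35 cytosolic genes in 41 windows and for 67 mitochondrial genes in 73 windows, beside 32851 windows of all genes. A start with C followed by 4 pyrimidines stood in 7 cytosolic windows (17.1%), in 0 mitochondrial windows and in 2.51% of all windows. Those of 4 genes are printed 5′ to 3′ with 20 bases before the start, and capitals mark the first 5 transcribed bases. Rpl35 lies at chr2:39005122-39005151 (minus strand), Rps10 at chr17:27635235-27635264 (minus strand), Rps18 at chr17:33955656-33955685 (minus strand) and Rps6 at chr4:86857358-86857387 (minus strand).

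Rpl35: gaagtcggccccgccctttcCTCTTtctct
Rps10: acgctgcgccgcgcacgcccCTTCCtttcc
Rps18: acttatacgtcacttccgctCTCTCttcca
Rps6: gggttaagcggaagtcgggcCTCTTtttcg

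The class difference was smaller when such a run was allowed to begin within 10 bases of the annotated start, a rule set after the first count was seen: 56.1% of cytosolic, 42.5% of mitochondrial and 30.7% of all windows then held one. Other motifs were searched on both strands over the whole window. The ETS motif CCGGAAG was found in 41.5% of cytosolic and 34.2% of mitochondrial windows, against 8.86% of all windows. The YY1 motif AAGATGGC was found in 7.32% of cytosolic, 16.4% of mitochondrial and 2.75% of all windows. The NRF1 motif CGCATGCG, named for nuclear respiratory factor 1, was found in 4.88% of cytosolic, 9.59% of mitochondrial and 1.87% of all windows. The E-box CACGTG was found in 12.2% of cytosolic, 9.59% of mitochondrial and 7.15% of all windows. The median GC content was 56.67% in cytosolic, 58.67% in mitochondrial and 52.67% in all windows, and its part in these shares was not tested. A match is a description of letters and no binding site. As examples from either compartment, the ETS letters (in capitals) began 73 bases before the start of Rps25, within the stretch at chr9:44407630-44407659 (plus strand), and 74 bases before that of Mrps16, within the stretch at chr14:20393546-20393575 (minus strand).

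Rps25: cacccattgccCCGGAAGtactctctcgag
Mrps16: ttgggggcgctCTTCCGGgcttcaggctct

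The 2 genes that passed the test below are Mrps21 and Mrpl50, and the 100 bases before their starts are printed in lower case. Mrps21 lies at chr3:95871515-95871614 and Mrpl50 at chr4:49521084-49521183, both on the minus strand. None of the 4 motifs is found in these printed stretches. The window of Mrps21 held the ETS letters farther downstream, beyond its start, and that of Mrpl50 held none of the 4.

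Mrps21: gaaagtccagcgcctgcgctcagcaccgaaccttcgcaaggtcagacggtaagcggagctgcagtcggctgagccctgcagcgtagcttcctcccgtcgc
Mrpl50: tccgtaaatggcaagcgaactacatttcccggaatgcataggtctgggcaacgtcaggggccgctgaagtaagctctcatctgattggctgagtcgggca

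All intensities are the linear values deposited by the authors, levels are their log2, and every log2 change is shRNA minus control. Meis1, the targeted transcription factor, read 192.6, 220.7, 126.7, 142.4 and 140.2 in shRNA samples 1 to 5, against 395.9, 413.1, 297.1, 332.7 and 290.3 in their control partners. It was 2.13-fold lower with the shRNA (log2 change -1.09, SE 0.08, adjusted p = 0.000636 by limma). The log2 ratio of 3′ to 5′ signal of the Gapdh and beta-actin control probe sets, a sign of RNA integrity and labelling, was 0.37 ± 0.02 with the shRNA and 0.28 ± 0.06 with the control vector (SD, n = 5 each). It was higher in 5 of 5 pairs, although an exact sign-flip test of 5 pairs cannot reach 0.05 when it is two-sided. Of the myeloid markers, 6 of 6 were measured, with summed intensities of 9786 to 15418 in shRNA samples and 11528 to 18012 in control samples. Elane, a granule protease, and Ptprc, the common leukocyte antigen, were lower with the shRNA, with log2 changes of -0.40 and -0.35, and their part in the results below was not tested. The other 4, Mpo, Csf3r, Fcgr3 and Itgam, had changes of -0.15, -0.14, 0.27 and 0.45 that did not pass (adjusted p 0.194 to 0.526). The markers of other cells that were measured (3 of 5 erythroid, 4 of 5 lymphoid and 4 of 4 stromal genes) had levels of only 1.98 to 3.04, a range that ends close to the level of Fcgr3. In bulk RNA, fewer cells of a type and less RNA per cell cannot be told apart. Over all genes, 2.98% passed the threshold (adjusted p under 0.05) as lower and 1.08% as higher with the shRNA.

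The cytosolic ribosomal protein genes were among the brightest on the arrays. Of the 40, 31 stood among the 100 brightest genes, and 0 mitochondrial genes did. Their median level was 13.58, against 9.12 for the mitochondrial genes and 3.10 for all genes. Probe sets of different genes differ in how strongly they bind, so these are positions on the array's scale and no molar comparison. The brightest member of the small subunit was Rps29, a protein with a zinc-binding motif. It averaged 26900 ± 274 with the shRNA and 26320 ± 512 with the control vector (SD, n = 5 each). The brightest member of the large subunit was Rpl35, a protein near the exit tunnel. It averaged 20340 ± 750 with the shRNA and 20680 ± 536 with the control vector. The median SD between arrays was 0.05 log2 units in the shRNA group and 0.05 in the control group, against 0.10 (shRNA) and 0.08 (control) over the 430 genes above a level of 11 and 0.19 (shRNA) and 0.17 (control) over all genes.

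Of the 40, 8 lay below a level of 11, because the brightest probe set that names only them was a dim one. These were Rps6, Rpl14, Rps25, Rpl12, Rpl27a, Rpl39, Rps27 and Rps16, with levels of 8.80, 8.11, 7.98, 6.29, 5.89, 4.29, 3.19 and 1.49. Rps16, for example, read only 2.46 to 3.29 in shRNA samples and 2.52 to 3.04 in control samples, and these values say little of a subunit that every ribosome holds. Another 113 probe sets list a symbol of the rule's form beside other symbols and could not be assigned to 1 gene. The genes they name need not be among the members. Their median level was 13.43, with 72 above 13, and their median log2 change was 0.05, with a range from -1.70 to 1.95. Over all 45037 probe sets, 1.96% were called lower and 0.522% higher, and of these 113 there were 4 called lower and 3 called higher.

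**Figure D1:**
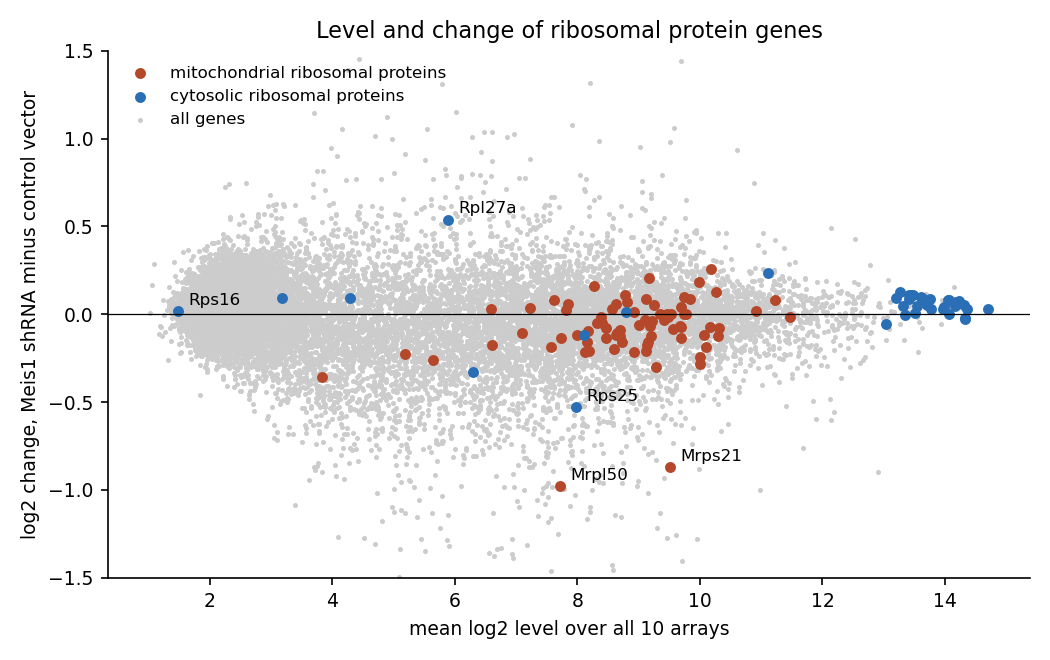
Mean log2 level over all 10 arrays (horizontal) and log2 change, Meis1 shRNA minus control vector (vertical), for mitochondrial (red) and cytosolic (blue) ribosomal protein genes over all genes (grey). The 16 genes with changes beyond 1.5 in either direction lie outside the axis. Most cytosolic genes form a tight group above a level of 13 with changes near 0, and the mitochondrial genes spread around a level of 9.12.

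Of the 40 cytosolic genes, 0 passed the threshold as lower or as higher by limma. At an unadjusted p under 0.05, 1 was lower (Rps25) and 1 was higher (Rpl37), against backgrounds of 11.1% of all genes lower and 6.9% higher. Their median log2 change was 0.05, against 0.00 over all genes, and 7 of the 40 were below 0. For 31 of the 40 the change was within 0.1 in either direction, against 8569 of all 18193 genes and 250 of the 430 genes above a level of 11. Over the 32 genes above a level of 11, the single-gene 95% intervals of the change ran from -0.31 to 0.44 at their outermost ends. With the trend and robust options of eBayes, 4 cytosolic genes passed as higher (Rpl19, Rpl37, Rps2 and Rps3, with changes of 0.11 to 0.23) and 1 as lower (Rps25). Over all 18193 genes, 453 passed as higher and 1044 as lower in that fit. The SE of Rps3 was 0.03 there and 0.08 in the main fit. The main fit draws each gene's variance toward a value shared by genes of all levels.

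The small changes of the cytosolic genes ran mostly upward. In 14 of the 40 (35%) the shRNA sample was higher in all 5 pairs, against 7.45% of all genes and 17.4% of the 430 genes above a level of 11. In 2 of the 40 the shRNA sample was lower in all 5 pairs, against 10.3% of all genes and 18.8% of the 430 genes above a level of 11. The groups did not overlap, with the shRNA higher, in 3 genes (Rpl19, Rpl37 and Rps3), against 1.53% of all genes. Among the 430 genes above a level of 11, there were 13 such genes. The genes are read on the same arrays, so they are not independent of each other, and none of these changes passed the threshold in the main fit.

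Rpl37, a large-subunit protein, read 2179, 2454, 2663, 2548 and 2142 in shRNA samples 1 to 5, against 2093, 1957, 2062, 1942 and 2106 in control samples 1 to 5. Every shRNA value lay above every control value, by a wide margin in samples 2 to 4 and a narrow one in samples 1 and 5. The log2 change was 0.23 (95% interval 0.03 to 0.44, adjusted p = 0.218 by limma). Rps3, which lines the messenger RNA entry of the small subunit, averaged 10253 ± 321 with the shRNA and 9373 ± 303 with the control vector (SD, n = 5 each). Its log2 change was 0.13 (95% interval -0.04 to 0.30, adjusted p = 0.431).

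Rps25, a small-subunit protein known for its part in initiation at internal ribosome entry sites, had the lowest change of the cytosolic class. It read 294.5, 130.6, 191.7, 223.3 and 249.3 in shRNA samples 1 to 5, against 355.7, 292.4, 271.7, 310.5 and 294.0 in control samples 1 to 5. Each shRNA value was below that of its partner, while shRNA sample 1 overlapped the control range. The log2 change was -0.53 (95% interval -0.84 to -0.22, adjusted p = 0.0726 by limma), and it passed the threshold when genes with a mean level of 5 or less were left out (adjusted p = 0.0345). The probe set behind these values is dim for a ribosomal protein, and no second probe set names Rps25 alone.

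Among other members with low changes, Rpl12, at the base of the large subunit's stalk, read 97.02, 43.87, 77.73, 65.45 and 77.91 in shRNA samples, against 82.81, 92.97, 86.88, 88.47 and 88.17 in control samples. The shRNA values spread on both sides of the narrow control range, and the change of -0.33 did not pass (adjusted p = 0.359). Without pair 2 it was -0.14. Rpl14, also of the large subunit, averaged 266.1 ± 30.9 with the shRNA and 287.9 ± 27.3 with the control vector (SD, n = 5 each), lower in 5 of 5 pairs, with a change of -0.12 that did not pass (adjusted p = 0.503). Rps9, a small-subunit protein, had a change of -0.06, with 5984 in shRNA sample 2 and 8078 to 9413 in the other shRNA samples.

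Rpl27a, a large-subunit protein, depended on the probe set. Its brightest one read 59.39, 80.93, 79.34, 87.55 and 55.90 in shRNA samples, against 50.72, 28.68, 50.32, 48.91 and 80.64 in control samples. Pair 5 ran opposite to the other 4, and the log2 change was 0.54 (95% interval -0.02 to 1.09, adjusted p = 0.292 by limma). Without pair 2 the change was 0.30 and did not pass (adjusted p = 0.584). Without pair 5 the change was 0.81 and passed (adjusted p = 0.0490), the only cytosolic call among the fits that left out a pair. A second, dimmer probe set, named after its values were seen, read 37.43, 51.44, 106.7, 90.48 and 88.65 in shRNA samples, against 6.676, 9.198, 17.23, 10.54 and 36.55 in control samples. There every shRNA value exceeded every control value, 5.26-fold on average (log2 change 2.40, adjusted p = 0.00111 over all probe sets). It was the 1 call among 91 cytosolic probe sets, of which 0 were called lower, against 0.522% of all probe sets called higher and 1.96% called lower, and its level was 4.93.

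A list of 10 genes, 7 of them measured, was drawn from those whose mutation or loss causes Diamond-Blackfan anaemia or, for Rps14, the anaemia of myelodysplasia with a deletion on the long arm of human chromosome 5. The list is not complete, and other members, such as Rps29, are also known in Diamond-Blackfan anaemia. These disorders link a shortage of a ribosomal protein to the p53 pathway in blood-forming cells. None of the 7 passed the threshold, with changes from -0.02 (Rps7) to 0.11 (Rps14). Rps19 averaged 11200 ± 436 with the shRNA and 10560 ± 344 with the control vector, and Rps14 averaged 11900 ± 846 with the shRNA and 11020 ± 319 with the control vector (SD, n = 5 each). Rps24, Rps26 and Rps10 changed by 0.04, 0.06 and 0.00 without passing. Rpl11, which binds the p53 ligase Mdm2 when ribosome assembly is disturbed, read 13800 to 14300 in shRNA samples and 13500 to 14000 in control samples, a change of 0.03 (95% interval -0.14 to 0.20).

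The mitochondrial ribosomal protein genes held the 2 members that passed. Of the 76, 2 were called lower (Mrps21 and Mrpl50), 0 were called higher and 74 did not pass by limma. Against the 2.98% of all genes called lower, and the 6.61% of genes with a mean level above 5 called lower, 2 of 76 is not a high share. The median log2 change was -0.07, against 0.00 over all genes and -0.04 over the 6721 genes above a level of 5, the range in which nearly all of these members lie. Of the 76, 50 were below 0 (65.8%), against 49.0% of all genes and 58.5% of those above a level of 5. In 12 of the 76 the shRNA sample was lower in all 5 pairs (15.8%), between the 10.3% of all genes and the 20.8% of genes above a level of 5. In 2 of the 76, Mrpl22 and Mrpl39, it was higher in all 5 pairs.

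**Figure D2:**
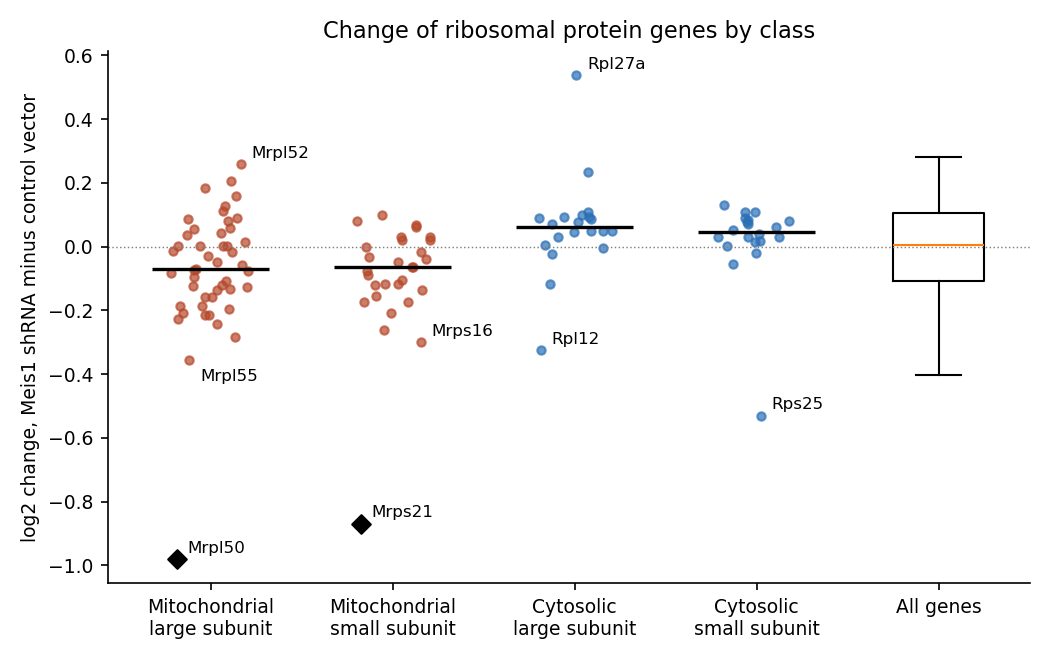
Log2 change, Meis1 shRNA minus control vector, of each ribosomal protein gene in the 4 subunit classes. Points are genes, horizontal bars class medians and black diamonds the 2 genes past the threshold, and the box gives the quartiles of all genes with whiskers at their 5th and 95th percentiles. The cytosolic medians lie at 0.06 (large) and 0.05 (small), and the mitochondrial medians at -0.07 (large) and -0.06 (small).

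Mrps21, the mitochondrial counterpart of a small-subunit protein of bacteria, fell in every pair. It read 577.0, 559.1, 552.1, 513.5 and 518.1 in shRNA samples 1 to 5, against 1015, 1020, 992.4, 955.8 and 979.2 in control samples 1 to 5. The groups were far apart, with a gap from 577.0 to 955.8 between them. The level was 1.83-fold lower with the shRNA (log2 change -0.87, SE 0.07, 95% interval -1.04 to -0.70, adjusted p = 0.000872 by limma). Its 5 pair differences ran only from -0.92 to -0.81. Mrps21 passed in each fit that left out a pair, with adjusted p from 0.00264 to 0.00849.

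A second probe set for Mrps21 did not show this fall. It is dim, at a level of 5.17, and averaged 39.3 ± 9.33 with the shRNA and 36.6 ± 17.0 with the control vector (SD, n = 5 each), a log2 change of 0.18 (SE 0.27). When all probe sets of a gene were averaged, the change of Mrps21 was -0.34 and did not pass (adjusted p = 0.267).

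Mrpl50, a large-subunit protein found in mitochondrial but not in bacterial ribosomes, was also lower in 5 of 5 pairs. It read 175.4, 73.59, 159.6, 159.8 and 231.9 in shRNA samples 1 to 5, against 306.8, 299.8, 317.4, 303.1 and 257.4 in control samples 1 to 5. The groups did not overlap, but pair 2 differed most and pair 5 little. The level was 1.97-fold lower with the shRNA (log2 change -0.98, SE 0.22, 95% interval -1.48 to -0.48, adjusted p = 0.0476 by limma). The call was lost without pair 1, 2, 3 or 4 (adjusted p 0.0710 to 0.158, changes -1.02 to -0.72) and held without pair 5 (change -1.19, adjusted p = 0.0165). It was also lost after a further quantile normalization (change -0.89, adjusted p = 0.0556) and with 16 units added before the log2 (change -0.90, adjusted p = 0.0754).

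The second probe set for Mrpl50 ran the same way. It read 147.8, 108.8, 144.6, 111.7 and 114.0 in shRNA samples, against 209.4, 209.9, 242.8, 243.6 and 162.0 in control samples, again with no overlap. Its log2 change was -0.77 (SE 0.11), with an adjusted p of 0.0113 over all probe sets. In that fit over all probe sets, the first probe set of Mrpl50 had an adjusted p of 0.0559.

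**Figure D3:**
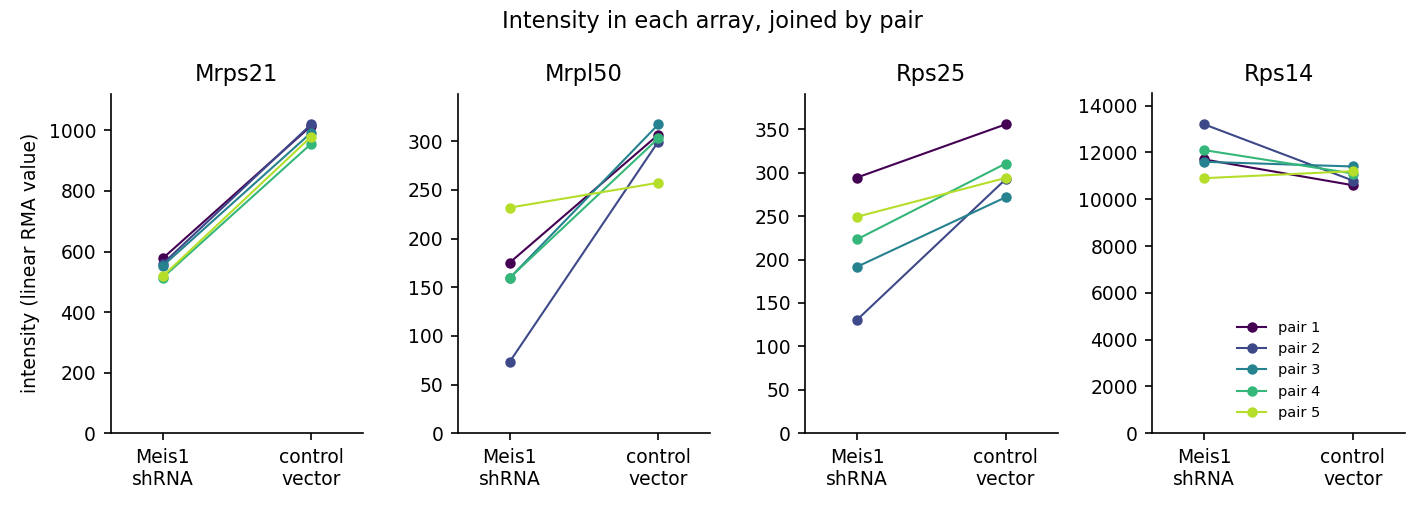
Intensity (linear RMA value, axis from 0) in each array for Mrps21, Mrpl50, Rps25 and Rps14, with Meis1 shRNA left and control vector right, and a line joining each pair. Mrps21 drops by a like amount in all 5 pairs, Mrpl50 and Rps25 by unequal amounts, and Rps14 lies between 10600 and 13200 in both groups.

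Of the 156 probe sets that name a single mitochondrial member, 3 were called lower and 0 higher, a share near the 1.96% of all probe sets called lower. These were the second set of Mrpl50, the first of Mrps21 and, named after its values were seen, 1 of the 2 sets of Mrps24, a small-subunit protein. That set averaged 350.4 ± 62.0 with the shRNA and 509.7 ± 52.3 with the control vector (SD, n = 5 each), a log2 change of -0.55 (adjusted p = 0.0225). The brighter set of Mrps24 averaged 1027 ± 56.8 with the shRNA and 1115 ± 68.3 with the control vector, a change of -0.12 that did not pass, so the 2 sets of Mrps24 disagree in size.

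At an unadjusted p under 0.05, 9 of the 76 mitochondrial genes were lower and 1 was higher. Beside Mrps21 and Mrpl50 the 9 are Mrpl55, Mrpl33, Mrpl12, Mrpl47, Mrpl58, Mrpl18 and Mrps16, and the 1 is Mrpl52. The first count is close to the background of 11.1% of all genes, but below the 21.4% of genes above a level of 5, where all but 1 of the 76 lie. The second is below both the 6.9% of all genes and the 9.97% of genes above a level of 5. Groups did not overlap, with the shRNA lower, in Mrps21, Mrpl50 and Mrpl47, 3 of 76 against 3.45% of all genes and 7.78% of those above a level of 5.

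Several of these genes have named roles. Mrpl12, of the flexible stalk that recruits translation factors and a partner of the mitochondrial RNA polymerase, read 1036, 1176, 922.8, 805.5 and 845.8 in shRNA samples, against 1204, 1185, 1144, 1033 and 1051 in control samples. All 5 pairs were lower by unequal amounts, hardly at all in pair 2, and the change of -0.24 did not pass (adjusted p = 0.173). Mrpl33, a small protein of the large subunit, averaged 944.8 ± 162 with the shRNA and 1140 ± 118 with the control vector, a change of -0.28 (adjusted p = 0.129). Mrpl58, a peptidyl-tRNA hydrolase built into the large subunit that can release stalled ribosomes, averaged 362.2 ± 31.9 with the shRNA and 413.4 ± 9.39 with the control vector, a change of -0.19 (adjusted p = 0.256).

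Mrps16, a conserved small-subunit protein whose loss in people disturbs respiratory chain assembly, read 632.6, 651.2, 565.6, 504.2 and 474.8 in shRNA samples, against 757.8, 697.3, 627.1, 738.9 and 641.9 in control samples. It was lower in 5 of 5 pairs with overlapping groups (log2 change -0.30, 95% interval -0.51 to -0.08, adjusted p = 0.134 by limma). Mrpl47, of the large subunit, was steadier, at 272.5 ± 5.30 with the shRNA and 314.8 ± 16.9 with the control vector (SD, n = 5 each), a change of -0.21 (adjusted p = 0.188). Mrpl55, the dimmest mitochondrial member at a level of 3.84, averaged 12.7 ± 1.09 with the shRNA and 16.3 ± 2.22 with the control vector, a change of -0.36 that did not pass (adjusted p = 0.110).

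At the other end, Mrpl52 read 1551, 1780, 1121, 1186 and 892.6 in shRNA samples, against 1228, 1171, 1029, 1008 and 896.7 in control samples. The difference was largest in pairs 1 and 2 and about 0 in pair 5, and the change of 0.26 did not pass (95% interval 0.03 to 0.49, adjusted p = 0.224 by limma). Mrpl22, a protein of the exit tunnel, averaged 628.6 ± 109 with the shRNA and 538.7 ± 21.7 with the control vector (SD, n = 5 each), higher in 5 of 5 pairs by 0.21 (adjusted p = 0.328). In the small subunit the highest changes, of Mrps15 and Mrps31, were only 0.10 and 0.08. Mrps27, a pentatricopeptide repeat protein and the dimmest small-subunit member, averaged 47.2 ± 13.5 with the shRNA and 56.7 ± 15.6 with the control vector and ran opposite in pair 5, where it read 68.82 with the shRNA and 35.76 with the control vector. The brightest member of the mitochondrial large subunit, Mrpl51, averaged 2834 ± 143 with the shRNA and 2860 ± 30.4 with the control vector. The brightest of the small subunit, Mrps14, averaged 1948 ± 128 with the shRNA and 1917 ± 69.2 with the control vector.

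Set side by side, the median log2 changes differed by -0.12, mitochondrial minus cytosolic. The mean over the 76 mitochondrial genes changed by -0.01, -0.03, -0.10, -0.24 and -0.04 in pairs 1 to 5, and the mean over the 40 cytosolic genes by 0.07, 0.05, 0.04, 0.05 and 0.00. The mitochondrial mean was thus below the cytosolic mean in 5 of 5 pairs, with differences of -0.08, -0.08, -0.13, -0.29 and -0.04. Pair 4 stands out, and there 63 of the 76 mitochondrial genes were lower with the shRNA. Without pair 4 the median change of the mitochondrial genes was -0.02. The genes of a class share arrays and normalization, so no test was made of the class means.

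The ratio of 3′ to 5′ signal also differed within the pairs, and its part in these values was not tested. Its difference between shRNA and control was 0.11, 0.06, 0.09, 0.19 and 0.01 in pairs 1 to 5, largest in pair 4 and smallest in pair 5. The mitochondrial mean change was also lowest in pair 4, but it was -0.01 in pair 1 and -0.04 in pair 5. With the ratio as a covariate beside the pair, the median change was 0.04 for the mitochondrial genes, opposite in sign to the main value, and 0 of the 76 passed, while 2 genes passed as lower and 0 as higher over the whole array. In that fit the change of Mrps21 was -0.88 (SE 0.14, adjusted p = 0.186) and that of Mrpl50 was -0.87 (SE 0.43, adjusted p = 0.833). In the main fit their SEs were smaller, at 0.07 and 0.22. The ratio was higher with the shRNA in 5 of 5 pairs, so the covariate fit separates shRNA and ratio only poorly. The sizes of the 2 class medians also moved with the scaling: they were -0.02 (mitochondrial) and 0.03 (cytosolic) after a further quantile normalization, and -0.11 (mitochondrial) and 0.01 (cytosolic) after centring each array on its median.

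**Figure D4:**
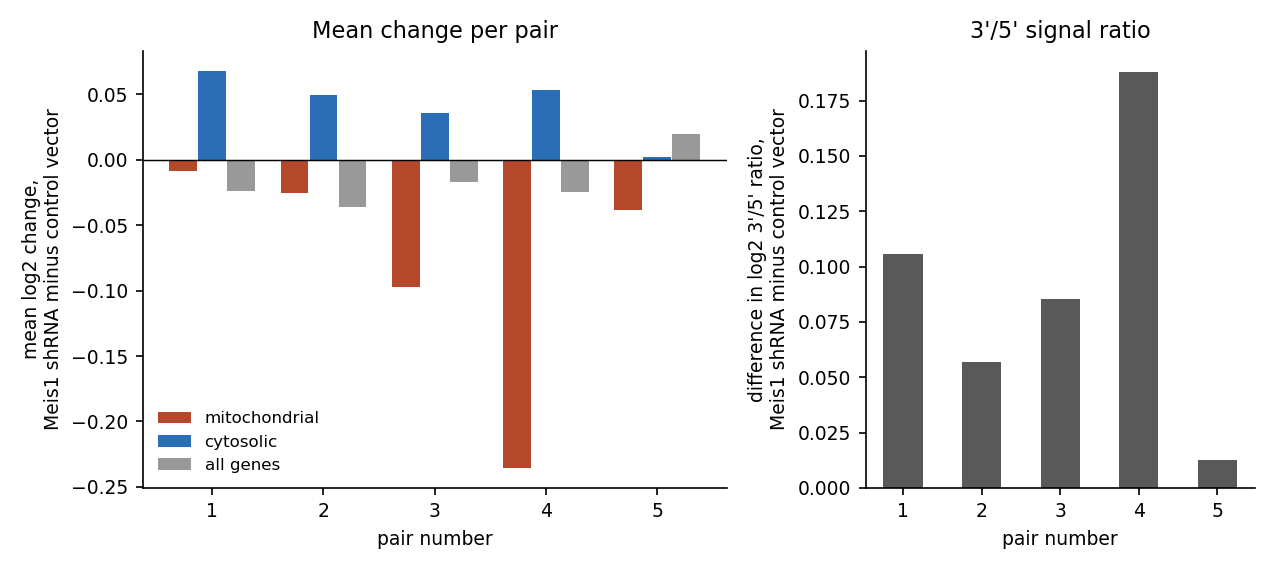
Left, mean log2 change, Meis1 shRNA minus control vector, of the mitochondrial (red) and cytosolic (blue) ribosomal protein genes and of all genes (grey) in each of the 5 pairs. Right, the difference in the log2 ratio of 3′ to 5′ signal in the same pairs. The mitochondrial mean is lowest in pair 4, at -0.24, where the ratio differs most, at 0.19.

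The subunits of each ribosome were also set side by side, with no test of their difference. The median change was -0.07 for the mitochondrial large subunit and -0.06 for the small one, and 0.06 for the cytosolic large subunit and 0.05 for the small one. In the mitochondrial small subunit 21 of 29 genes were below 0, and in the large one 29 of 47. By pair the means of the cytosolic subunits could differ in sign. In pair 2 the mean change was 0.11 for the large subunit and -0.01 for the small one, and in pair 5 it was -0.02 and 0.03. Their medians did not differ in sign, at 0.10 (large) and 0.07 (small) in pair 2 and 0.02 and 0.02 in pair 5.

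Genes that act with these ribosomes but fall outside the symbol rule gave few calls. Of the cytosolic subunits with other names, 4 of 6 were measured (Rplp0 and Rplp2 of the stalk, Rpsa and Fau), and 0 passed, with changes from -0.02 to 0.11. Of the mitochondrial subunits with other names, 4 of 5 were measured and 0 passed. All 4 were below 0, with the lowest change at -0.23 in Dap3, a GTP-binding small-subunit protein also named for its part in cell death. Of the -like paralogs, which can replace their partner in some tissues, 6 of 8 were measured and 0 passed. The bright ones among them were Rpl22l1, with a change of -0.25 (adjusted p = 0.106), and Rps27l, a p53 target, with 0.17 (adjusted p = 0.273).

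Among 31 measured cytosolic translation factors, 1 was lower and 0 higher, a share near the background of 2.98% of all genes called lower. The 1 was Eif4a1, the RNA helicase of cap-dependent initiation, with a log2 change of -0.56 (SE 0.10, adjusted p = 0.0223 by limma). The list's median change was 0.00. The elongation factors Eef1a1 and Eef2 had changes of 0.15 and 0.15 that did not pass. Those of Eef1b2 and Eef1d, -0.01 and -0.11, ran the other way and did not pass either. Among 27 measured mitochondrial translation and assembly factors, 0 passed, 17 were below 0 and the median change was -0.02. The elongation factors Tufm and Tsfm had changes of -0.27 (adjusted p = 0.108) and -0.48 (adjusted p = 0.180), and Gfm1 and Gfm2 smaller ones of -0.10 and -0.05. Guf1, a homologue of the bacterial factor LepA, had a change of -0.55 (adjusted p = 0.117) at a level of 4.03. Rps19bp1, the member outside both ribosomes, had a change of 0.10 (adjusted p = 0.757).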

How the data were processed

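Affymetrix mouse arrays of 10 samples were analysed. The deposited values are probe set intensities made by the authors with RMA, per the submitters' processing notes. They are on a linear scale (1.295 to 32400). For the RMA version and the array's genome build, the sources used here give nothing. Of 45101 probe sets, 64 controls were left out, and 34945 of the rest had 1 gene symbol, 932 several and 9160 none in the platform annotation. RefSeq matched 34741 of those with 1 symbol by Entrez identifier, and all 117 members. Each of 18193 genes was represented by its brightest probe set with 1 symbol. Of the chosen sets, 16 of 40 cytosolic and 10 of 76 mitochondrial ones carry the suffix _s_at or _x_at, which marks probes that may bind related transcripts.

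Log2 intensities were fitted with limma 3.58.1 in R 4.3.3 (lmFit, eBayes) with the sample number as a block, two-sided, and with Benjamini-Hochberg adjustment over all genes (threshold 0.05). The labels' treatment protocol pairs the samples. Over 11215 probe sets, deviations from the group means correlated within pairs by 0.600, 0.462, 0.339, 0.310 and 0.557. The fit was tested on simulated data. Named genes were members past the threshold, the 2 highest and 2 lowest changes and the brightest and dimmest member of each class, anaemia genes, Mdm2 binders and members with discordant probe sets. Genes at an unadjusted p under 0.05 or with non-overlapping groups were named after their values were seen. Members and lists were chosen with earlier results of these data known. The alternatives were no block, other scaling, filters, probe set choices, eBayes settings, the 3′/5′ ratio as a covariate and each pair left out. The number of arrays limits the precision.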

Additional observations from a re-analysis of the deposited data

Results flagged for a closer look

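In named genes, 4 values stood apart from the other arrays of their group by Dixon's test, which by chance marks about 1 in 20 groups. Rpl14 read 213.1 in shRNA sample 5, against 268.0 to 289.9 in the other shRNA samples. Rps3 read 10800 in shRNA sample 4, against 9964 to 10200. Rps24 read 16000 in shRNA sample 4, against 16500 to 16700. Rps7 read 19200 in control sample 5, against 20800 to 21300 in the other control samples.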

How the results depend on the processing

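Over all genes, 543 were lower and 196 higher. The counts were 915 and 390 among genes above a level of 5, 1044 and 453 with trend and robust eBayes, and 2 and 0 with the 3′/5′ ratio as a covariate. Higher genes numbered 95 without the replicate block (405 lower, Mrpl50 adjusted p = 0.0492), 305 after quantile normalization and 350 with 16 units added. Leaving out a pair gave 199 to 656 lower and 44 to 273 higher genes, lowest without pair 4. Cytosolic genes called lower numbered 1 among genes above a level of 5 and 1 with trend and robust eBayes. Cytosolic genes called higher numbered 1 with all probe sets averaged (Rpl27a), 4 with trend and robust eBayes, and 0 to 1 with a pair left out (0 to 0 for lower). Mitochondrial genes called lower numbered 1 after quantile normalization, 5 above a level of 5, 5 with trend and robust eBayes, 2 with 16 units added (Mrps21 and Mrpl47, not Mrpl50), 0 with the covariate, and 1 to 2 with a pair left out. Mitochondrial genes called higher numbered 1 with trend and robust eBayes. The cytosolic median was 0.012 after median centring, and the mitochondrial one 0.036 with the covariate and -0.08 to -0.02 with a pair left out. Of 414 values of single genes under alternatives, 394 kept their side of the threshold and 1 reversed: Mrps27 at 0.78 with the covariate. In 29 others the sign turned by less than the standard error. The causes were not tested. The number of arrays and, for dim probe sets, the signal over background limit the precision.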
